A study of Mus musculus with 6 samples.

Results

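The 50 genes described here encode proteins that copy DNA or carry cells through mitosis. They were taken by name from the deposited table, which lists 26890 genes, and kept where their raw counts over all 6 libraries summed to 20 or more. All 50 met that limit. Ccne2, Cdc6 and Ndc80 had the lowest sum, 29 counts each, and 40 genes reached 50 counts. By their best known role, 18 genes were placed in replication, 30 in mitosis and 2, Stmn1 and Hmgb2, in neither, because resting cells also use them.

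The libraries came from lung cells of C57BL/6 WT mice on day 3 after treatment. Of these, 3 carry the treatment label Saline and 3 the label C1q (20 µg per mouse). C1q is the recognition molecule of the classical complement pathway, and it was given through the trachea. The protocol text of all 6 samples mentions C1q alone, so membership of the Saline group follows the treatment field, and no allele or transgene is named in either group. Lungs had been digested enzymatically and the cells taken from a Percoll gradient, so the RNA is that of a mixture of recovered cells.

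A dividing cell loads the MCM helicase onto origins of replication in G1 phase, and cyclin E with its kinase helps to fire those origins at the start of S phase. Cyclin A, cyclin B and the kinase Cdk1 then drive entry into mitosis, where Aurora and Polo kinases, kinetochores and kinesin motors separate the chromosomes, and the anaphase-promoting complex ends mitosis by marking cyclins for destruction. Transcripts of the S phase set depend on E2F factors, and those of the mitotic set on the MuvB complex with B-Myb and FoxM1, which reads a promoter element called the CHR. In an adult lung most cells are resting, so these transcripts are scarce.

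Library totals ran from 2227619 to 3650793 counts, with 20520 to 23259 genes holding a count, and 3 counts corresponded to 0.822 to 1.35 CPM (counts scaled to a common library size, with TMM as a correction for library composition). Saline replicate 3 and C1q replicate 2 stood apart in a few genes: 17 and 16 genes, at 10 CPM or more, exceeded 4 times the level of every other library there, against 0 to 1 in the other libraries. Markers of alveolar type 2 cells, such as surfactant proteins, summed to 24640 to 48080 CPM over the 6 libraries and those of endothelium to 3766 to 5055 CPM, so the lung label has its defining transcripts. In the fit of all 13473 genes kept by filterByExpr, edgeR's quasi-likelihood test called 4 genes at an adjusted p under 0.05, or 0.0297%, namely Retnla, Eln, Timp1 and Kcne4, all higher after C1q. Whether every library comes from its own animal is not stated in the labels, and p-values therefore measure the spread between these samples, which may be technical.

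The 30 mitosis genes were read more often after C1q in 2 of the 3 C1q libraries, and the 18 replication genes by a smaller amount. A further 43 replication genes, described near the end, had a summed ratio of C1q over Saline of 1.03. None of the 50 genes passed the test. The 30 mitosis genes together held 140.9, 107.9 and 139.1 CPM in Saline replicates 1 to 3. In C1q replicates 1 to 3 they held 349.5, 148.9 and 323.8 CPM. C1q replicate 2 lay just above the Saline libraries, and its exact 95% Poisson interval, 135 to 163.9 CPM, overlapped that of Saline replicate 1, 128.1 to 154.7 CPM; these intervals cover counting error only. The group means were 129 ± 18.6 CPM for Saline and 274 ± 109 CPM for C1q (SD, n = 3 each), a ratio of 2.12. RNA of bulk cells cannot tell more cells in cycle from more of these transcripts per cell.

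For the 18 replication genes the sums were 350.4, 315.9 and 303.5 CPM in Saline replicates 1 to 3. They were 468.1, 396.8 and 398.8 CPM in C1q replicates 1 to 3. All C1q libraries lay above all Saline libraries, with means of 323 ± 24.3 and 421 ± 40.6 CPM (SD, n = 3 each) and a ratio of 1.3. Pcna alone supplied much of this sum. Without it the sums were 175.8, 143.6 and 169.1 CPM in Saline and 237, 168.4 and 213.8 CPM in C1q, a ratio of 1.27, and C1q replicate 2 fell within the Saline range.

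**Figure D1:**
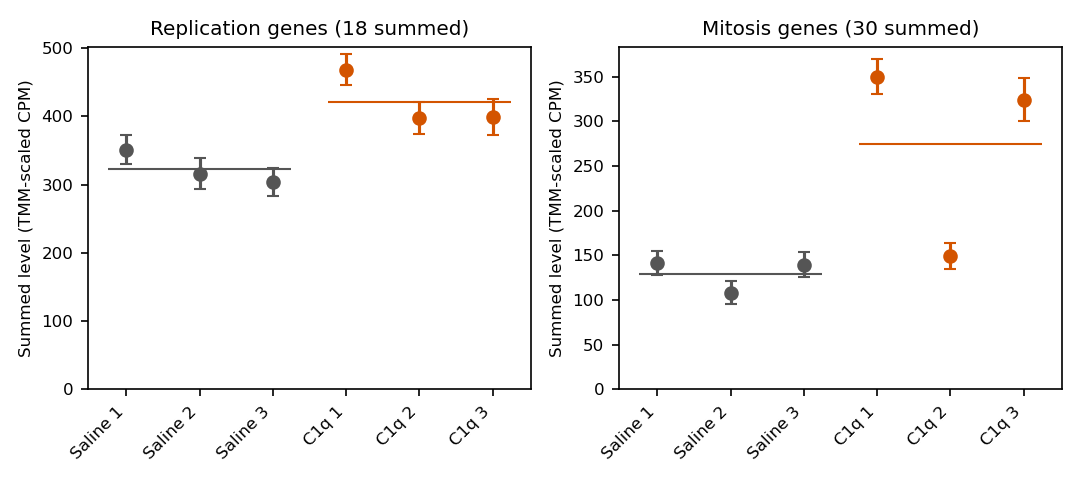
Summed level (CPM, linear axis from 0) of the 18 replication genes and the 30 mitosis genes in each library, with 95% Poisson intervals as bars and group means as lines. Mitosis genes reach 349.5 and 323.8 CPM in C1q replicates 1 and 3, while C1q replicate 2, at 148.9 CPM, lies near the Saline libraries.

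Gene by gene, the fit of all 16612 genes with a summed count of 20 or more, a filter that does not look at the groups, also made 4 calls, 0.0241%, and these were the 4 genes named above. None of the 50 cell cycle genes was called by edgeR's quasi-likelihood test, neither there nor among the 36 that filterByExpr kept, and the smallest adjusted p was 0.245, for Ccna2. At an unadjusted p under 0.05, 22 of the 50 were higher after C1q, against 4.2% of all genes, and 0 were lower. These comprised 16 of 30 mitosis genes and 6 of 18 replication genes. With DESeq2 2 genes were called, Ccna2 (adjusted p = 0.0195) and Cdk1 (adjusted p = 0.0344), with an adjusted p available for 35 of the 50. DESeq2 called 37 of the 13069 genes with an adjusted p, 0.283%. With limma-voom 0 of the 50 were called and 4 of 16612 genes, with 0.523 as the smallest adjusted p of the 50. Without any filter on low counts edgeR called 373 of 26890 genes, 1.39%, and 10 of the 50: Cdk1, Ccna2, Top2a, Ube2c, Cdc20, Spc25, Cenpa, Rrm2, Mki67 and Ccnb2. That fit gave every gene the same spread at a given level, and the standard error of the Cdk1 log2 fold change was 0.406 in it against 0.64 in the filtered fit.

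The log2 fold change of C1q over Saline had a median of 1.15 over the mitosis genes, from -0.03 to 2.65, and of 0.40 over the replication genes, from -0.21 to 1.51. Over all 16612 genes the median was -0.02. It was above 0 for 45 of the 50, comprising 28 mitosis genes, 15 replication genes and both others, against 47.6% of all genes. All C1q libraries lay above all Saline libraries for 11 genes, against 7.84% of all genes, and all lay below for 0, against 5.97%. The 11 were Rrm2, Tk1 and Pcna among the replication genes and Ccna2, Ccnb2, Aurka, Cenpa, Kif11, Kif20a, Ect2 and Top2a among the mitosis genes.

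**Figure D2:**
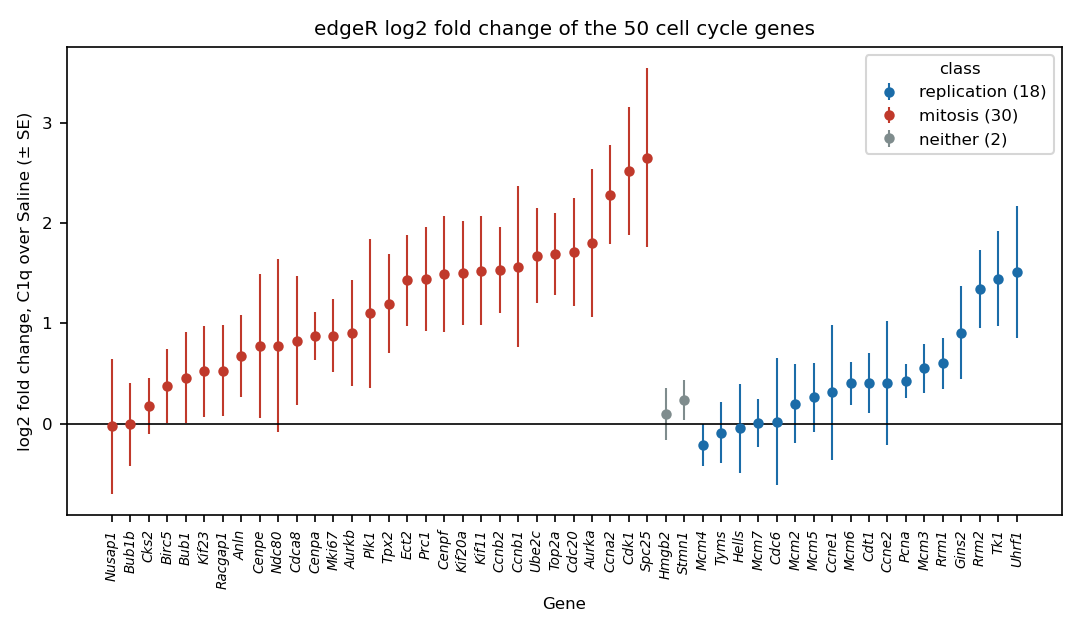
Log2 fold change of C1q over Saline for each of the 50 genes from edgeR, with bars of 1 standard error, ordered within replication (blue), mitosis (red) and neither (grey). Mitosis genes reach 2.65 for Spc25, and the lowest value is -0.21 for Mcm4.

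C1q replicate 2 was the lowest C1q library for 38 of the 50 genes, against 32.5% of all genes. It was so for 26 of 30 mitosis genes. C1q replicates 1 and 3 both lay above every Saline library for 31 genes, 23 of them mitotic, against 12.4% of all genes. In 14 of these 31, C1q replicate 2 fell within the Saline range. Relative to the Saline mean, the median log2 difference of the mitosis genes was 1.43, 0.27 and 1.26 in C1q replicates 1 to 3, and that of the replication genes 0.67, 0.04 and 0.30. The mitotic median exceeded the replicative median by 0.77, 0.23 and 0.97 in these libraries. In Saline replicates 1 to 3 that difference was -0.10, -0.10 and 0.28. The third Saline library thus lay above C1q replicate 2 in this difference. Leaving out C1q replicate 2, the mitosis median was 1.54 and the replication median 0.46. Leaving out C1q replicate 1, they were 0.77 and 0.10. C1q replicate 1, the deepest library, was the highest of all 6 for 29 genes, 12 of them in replication and 15 in mitosis. No share over all genes was taken for this count.

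**Figure D3:**
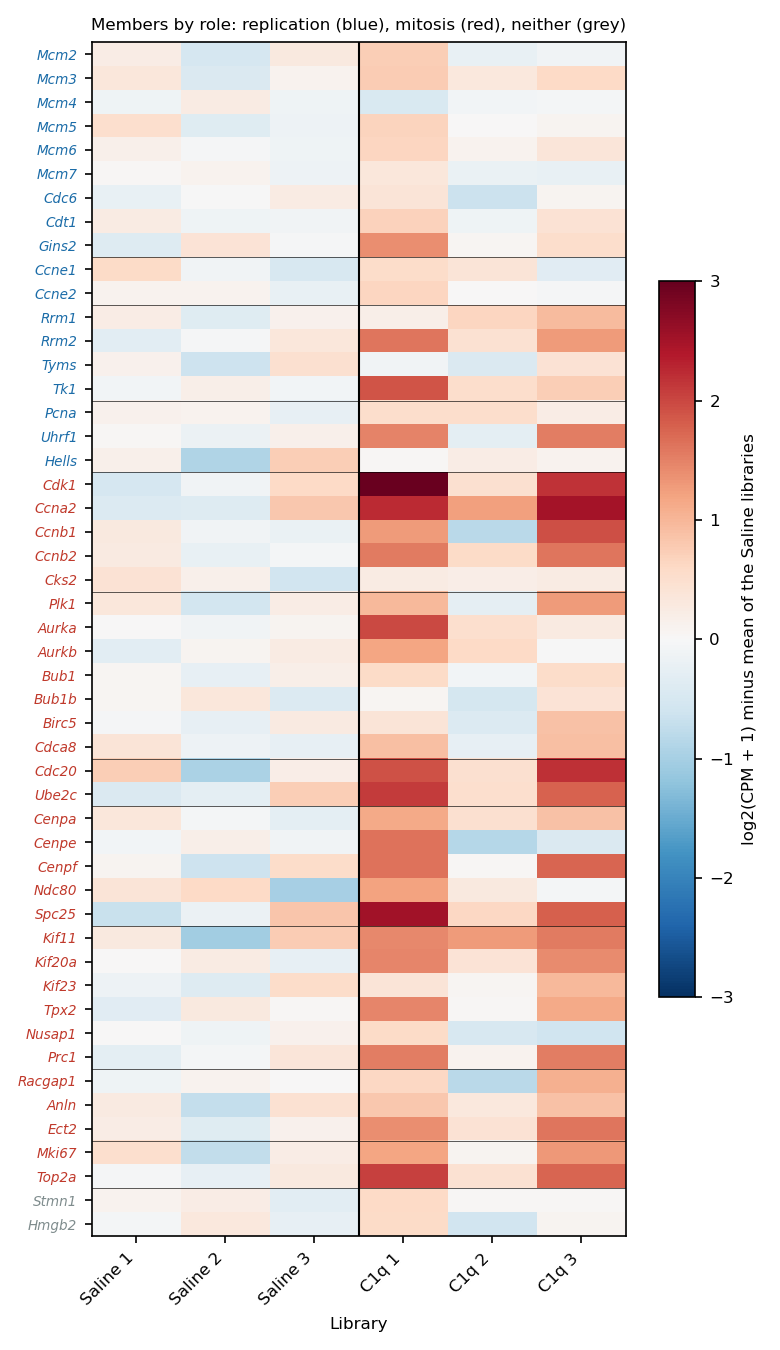
Level of each of the 50 genes in each library as log2(CPM + 1) minus the mean of the Saline libraries, grouped by role, with gene names in blue for replication, red for mitosis and grey for neither. C1q replicates 1 and 3 are red for most mitosis genes, while C1q replicate 2 is the lowest C1q library for 26 of the 30.

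Cell type markers were summed in the same libraries. Alveolar macrophage markers (15 of 15 genes in the table) held 1505 to 3624 CPM in Saline and 3313 to 4107 CPM in C1q. Without Chil3, which is in the monocyte list too, the other 14 held 788.2 to 1591 CPM in Saline and 1008 to 1309 CPM in C1q, inside the Saline range; leaving it out was chosen after its values were seen. Classical monocyte markers (10 of 10) held 1561 to 3079 CPM in Saline and 3498 to 4034 CPM in C1q, and fibroblast markers (14 of 14) 5945 to 7708 and 8058 to 9042 CPM, both without overlap of the groups. Without Chil3 the other 9 monocyte markers held 844.3 to 1046 CPM in Saline and 1178 to 1447 CPM in C1q, again without overlap. C1q replicate 2 held 8687 CPM of fibroblast markers, between the other C1q libraries. Its monocyte markers held 3976 CPM with Chil3, also between the others. Without Chil3 they held 1178 CPM, the lowest of the C1q libraries, against 1447 and 1193 CPM in C1q replicates 1 and 3. Interstitial macrophage markers (12 of 12) held 807.9 to 1244 and 1067 to 1250 CPM, neutrophil markers (10 of 10) 210.2 to 353.7 and 236.7 to 431.2 CPM, T cell markers (11 of 12) 84.72 to 117.9 and 75.45 to 100.3 CPM and B cell markers (9 of 9) 287 to 388.2 and 240.8 to 383.1 CPM. Endothelial markers (13 of 13) held 4299 to 5055 and 3766 to 4776 CPM, and type 2 cell markers (11 of 11) 24640 to 48080 and 34800 to 37720 CPM. Precursors of blood cells divide and could enter a lung digest. Markers of granulocyte precursors (8 of 9 in the table) held 10.01 to 29.15 and 21.11 to 34.17 CPM, with up to 5 of them, such as Ctsg, at 0 in a library. Ltf alone supplied most of this sum, with 25.9, 12.6 and 6.79 CPM in Saline and 24.4, 28.7 and 18.9 CPM in C1q. Only 2 of these markers had a summed count of 20 or more. Markers of erythroid precursors (10 of 12) held 4.461 to 13.94 and 4.965 to 6.945 CPM, with up to 6, such as Rhd, at 0. Genes induced by tissue dissociation (18 of 18) held 13670 to 15370 and 13460 to 14200 CPM. The part of any of these cells or of dissociation in the cell cycle values was not tested.

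The promoters of both classes were compared because replication and mitosis genes are known to be read through different elements. RefSeq windows on GRCm38.p6, from 250 bases before to 50 bases after a start, were found for 42 of the 50 genes. The letters searched on both strands were CCAAT for the CCAAT box and TTTGAA for the CHR. The E2F site was searched as TTGGCGC, the usual form, and as the related words TTCGCGC (a variant of it), TTCCCGC (another form) and TTGCCGC. The E2F words overlap their own reverse strand, so a palindromic site can match more than 1 time. ATTGG, the CCAAT word on the other strand, can share its last letters with the start of the usual E2F form, so a single stretch can count for both motifs. The mitosis genes are represented first by the 120 bases before the start of Cdk1 (chr10:69352913-69353032, minus strand), Top2a (chr11:99024190-99024309, minus), Cdc20 (chr4:118437344-118437463, minus), Kif11 (chr19:37376262-37376381, plus) and Mki67 (chr7:135716380-135716499, minus). They were chosen after the search as examples, and capitals mark the motifs (TTCAAA is the CHR word on the other strand).
Cdk1: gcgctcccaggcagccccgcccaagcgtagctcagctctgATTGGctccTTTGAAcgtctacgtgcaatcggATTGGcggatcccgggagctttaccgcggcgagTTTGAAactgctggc
Top2a: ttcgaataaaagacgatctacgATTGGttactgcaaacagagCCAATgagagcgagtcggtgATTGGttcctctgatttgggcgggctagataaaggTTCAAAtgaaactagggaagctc
Cdc20: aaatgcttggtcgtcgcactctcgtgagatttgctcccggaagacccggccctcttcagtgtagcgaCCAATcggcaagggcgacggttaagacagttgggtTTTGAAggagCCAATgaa
Kif11: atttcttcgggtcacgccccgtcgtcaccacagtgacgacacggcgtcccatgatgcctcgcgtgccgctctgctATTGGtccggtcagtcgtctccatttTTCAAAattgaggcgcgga
Mki67: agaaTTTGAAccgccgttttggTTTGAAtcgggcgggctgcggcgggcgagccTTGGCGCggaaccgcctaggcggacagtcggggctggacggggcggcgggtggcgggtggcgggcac

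Cdk1, Top2a, Cdc20 and Kif11 each hold the CHR letters within 23 bases of the start and a CCAAT box. Mki67 differs in the printed stretch: it has a pair of CHR words and an E2F word and no CCAAT box there. The whole window of Mki67 holds 3 CCAAT matches, and that of Cdk1 holds 2 E2F matches. The replication genes are represented by Mcm6 (chr1:128359706-128359825, minus), Rrm1 (chr7:102441575-102441694, plus) and Uhrf1 (chr17:56303217-56303336, plus), with capitals as before. GENCODE M21 places the gene start further out than RefSeq for Cdk1, Uhrf1 and Cdc20, by 26, 16 and 9 bases, which are part of the printed stretches.
Mcm6: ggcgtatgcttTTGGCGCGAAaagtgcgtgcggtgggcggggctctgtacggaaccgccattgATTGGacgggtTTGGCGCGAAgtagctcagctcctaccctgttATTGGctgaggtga
Rrm1: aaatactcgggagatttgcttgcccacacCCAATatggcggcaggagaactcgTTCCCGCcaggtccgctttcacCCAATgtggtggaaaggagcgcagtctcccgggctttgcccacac
Uhrf1: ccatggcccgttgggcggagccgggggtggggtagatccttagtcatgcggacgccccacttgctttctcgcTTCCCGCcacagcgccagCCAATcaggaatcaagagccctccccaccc

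Each of these 3 holds E2F letters and a CCAAT box and no CHR word. Over all windows, the CHR letters were in 78.6% of the 28 windows of mitosis genes, in 5.88% of the 17 windows of replication genes (Mcm2 alone) and in 17.9% of all 32851 windows. E2F letters were in 17.9%, 70.6% and 9.57% of these windows. The CCAAT letters were in 85.7%, 64.7% and 37.4%, and CCAAT and CHR together in 71.4%, 5.88% and 6.95%. A match describes letters, not binding, and a missing match says only that these letters are not in the window.

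**Figure D4:**
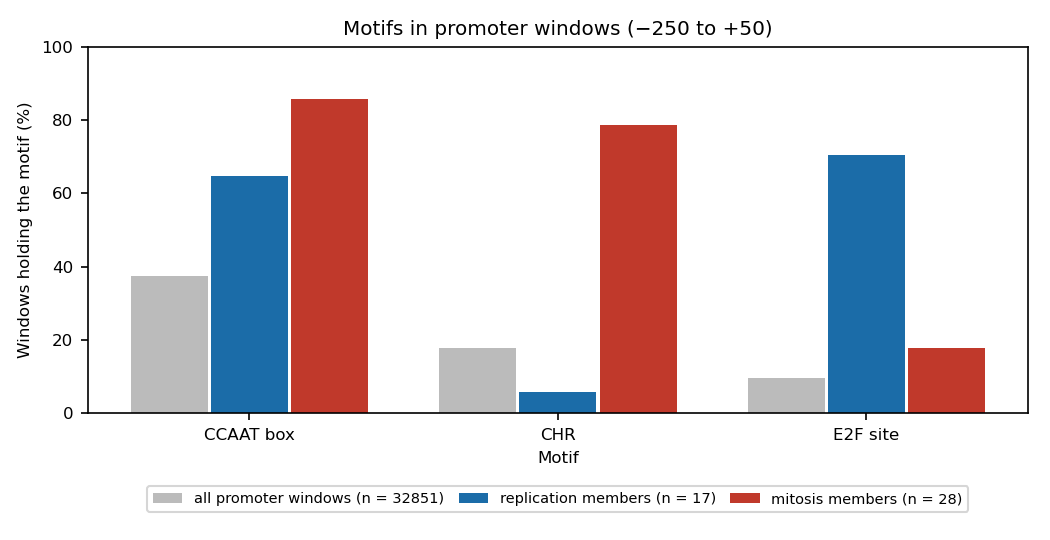
Share (%) of promoter windows holding each motif on either strand, for all windows (grey, n = 32851), replication genes (blue, n = 17) and mitosis genes (red, n = 28). CHR letters are in 78.6% of mitosis windows and 5.88% of replication windows, and E2F letters in 17.9% and 70.6%.

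Origin licensing and the helicase came first in order of the cycle, with 9 genes: the helicase subunits Mcm2 to Mcm7, the loaders Cdc6 and Cdt1, and Gins2, a subunit of the GINS complex that joins the active helicase. Their log2 fold changes ran from -0.21 to 0.91, with a median of 0.26, and none had groups that did not overlap. Mcm3 held 22.1, 12.6 and 18.6 CPM in Saline replicates 1 to 3 and 30.3, 21.6 and 26.5 CPM in C1q replicates 1 to 3. Its C1q replicate 2 lay just under Saline replicate 1, and the log2 fold change was 0.55 ± 0.24 (SE), with an adjusted p of 0.6 by edgeR. Mcm6 held 20.5, 17.8 and 16.4 CPM against 28.9, 19.5 and 23.8 CPM, so C1q replicate 2 was within the Saline range (log2 fold change 0.40 ± 0.22, adjusted p = 0.623). Gins2 held 2.88, 5.68 and 3.93 CPM against 12.2, 4.26 and 6.29 CPM, again with C1q replicate 2 inside the Saline range (0.91 ± 0.46, adjusted p = 0.612). Mcm4 had the lowest log2 fold change of the 50 genes and held 23.4, 30.4 and 23.2 CPM against 18.3, 24.1 and 24.3 CPM. Its groups overlapped (-0.21 ± 0.21, adjusted p = 0.771). The subunits of this helicase thus had fold changes of both signs, none past the test.

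Cyclin E, which starts S phase with Cdk2, is encoded by Ccne1 and Ccne2, both near the limit of detection. Ccne1 held 2.56, 1.22 and 0.715 CPM in Saline and 2.5, 2.13 and 0.898 CPM in C1q. Ccne2 held 1.6, 1.62 and 1.07 CPM against 2.78, 1.42 and 1.35 CPM. Both overlapped between the groups, with log2 fold changes of 0.31 ± 0.68 and 0.40 ± 0.62, so at this depth a difference of that size was not detectable.

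The supply of deoxynucleotides was represented by 4 genes, with a median log2 fold change of 0.97. Rrm2, the S phase subunit of ribonucleotide reductase, which makes deoxynucleotides, held 3.52, 4.46 and 6.08 CPM in Saline and 16.1, 6.74 and 12.6 CPM in C1q. Tk1, thymidine kinase, which recycles thymidine, held 2.88, 3.65 and 2.86 CPM against 14.2, 4.96 and 5.84 CPM. In both the groups did not overlap, and C1q replicate 1 was the highest library. Log2 fold changes were 1.34 ± 0.39 for Rrm2 (adjusted p = 0.475) and 1.44 ± 0.47 for Tk1 (adjusted p = 0.53) by edgeR. Rrm1, the large subunit of the same reductase, held 18.9, 12.2 and 17.5 CPM against 18.1, 25.5 and 31.4 CPM. Here C1q replicate 1, not 2, lay within the Saline range (0.60 ± 0.26, adjusted p = 0.594). Tyms, which makes thymidylate, held 20.5, 11.8 and 26.1 CPM against 17.2, 13.5 and 25.2 CPM, with overlapping groups and a log2 fold change of -0.09 ± 0.31.

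Pcna, the sliding clamp of the replication fork that also serves DNA repair, held 175, 172 and 134 CPM in Saline and 231, 228 and 185 CPM in C1q. All C1q libraries lay above all Saline libraries, C1q replicate 2 included, and the log2 fold change was 0.42 ± 0.17 (adjusted p = 0.594). Uhrf1, which keeps DNA methylation on newly copied strands, held 1.6, 1.22 and 1.79 CPM against 6.11, 1.06 and 6.29 CPM. C1q replicate 2 was below every Saline library while the other C1q libraries were above them (1.51 ± 0.66, adjusted p = 0.6). Hells, a chromatin remodeller of the same process, held 6.09, 2.43 and 9.65 CPM against 5.56, 6.38 and 5.84 CPM, with all C1q libraries inside the Saline range (-0.05 ± 0.45). The 3 genes of fork and chromatin upkeep thus differed in the order of their libraries, but for Uhrf1 and Hells that order rests on few counts. Uhrf1 had 3 counts in C1q replicate 2 and also 3 in Saline replicate 2. Hells had 6 to 27 counts per library.

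Cyclins and the kinase that drive mitosis held 5 genes, with a median log2 fold change of 1.56. Ccna2 (cyclin A2, on GRCm38 at chr3:36564865-36572150) held 1.6, 1.62 and 5 CPM in Saline replicates 1 to 3 and 15.3, 7.09 and 18.4 CPM in C1q replicates 1 to 3. The groups did not overlap, and C1q replicate 2 was the lowest of its group. Means were 2.74 ± 1.96 and 13.6 ± 5.85 CPM (SD, n = 3 each), and the log2 fold change was 2.28 ± 0.50 (adjusted p = 0.245 by edgeR). Without Saline replicate 3, the highest Saline library for this gene, the log2 fold change was 3.03 and the adjusted p 0.0426, the 1 call of a cell cycle gene when a single library was left out of that fit. That fit called 17 genes in all, 0.102%. Cdk1, the kinase that triggers mitosis (chr10:69335146-69352938), held 1.28, 2.03 and 3.93 CPM against 24.2, 3.55 and 13.5 CPM. C1q replicate 2 lay within the Saline range and the other C1q libraries far above it (2.52 ± 0.64, adjusted p = 0.416). Ccnb2, a cyclin B, held 3.84, 2.43 and 2.86 CPM against 10.8, 4.96 and 11.2 CPM without overlap (1.53 ± 0.43, adjusted p = 0.44). The others were Ccnb1, also a cyclin B (1.56 ± 0.80), and Cks2, which binds cyclin-dependent kinases (0.18 ± 0.28).

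Among the 7 genes of mitotic kinases, the spindle checkpoint and the chromosomal passenger complex, fold changes were smaller and counts lower. Aurka, the Aurora kinase of spindle poles, held 0.961, 0.811 and 1.07 CPM in Saline and 6.67, 1.77 and 1.35 CPM in C1q. Aurkb, the kinase of the passenger complex, held 1.6, 2.43 and 2.86 CPM against 6.39, 3.9 and 2.25 CPM. Plk1, the Polo kinase, held 1.6, 0.406 and 1.43 CPM against 3.06, 0.709 and 4.04 CPM. Only Aurka of these 3 did not overlap between groups, and it rested largely on C1q replicate 1. Log2 fold changes were 1.80 ± 0.73, 0.90 ± 0.53 and 1.10 ± 0.74, with adjusted p-values of 0.594, 0.639 and 0.674 by edgeR. The other 4 were Bub1 and Bub1b, of the spindle checkpoint, and Birc5 and Cdca8, of the passenger complex, with log2 fold changes from -0.01 for Bub1b to 0.83 for Cdca8.

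Cdc20 and Ube2c, an activator and a ubiquitin-conjugating enzyme of the anaphase-promoting complex, had similar values. Cdc20 held 6.09, 1.22 and 3.93 CPM in Saline and 15, 4.96 and 18.4 CPM in C1q. Ube2c held 3.2, 3.65 and 8.58 CPM against 23.6, 7.09 and 18.4 CPM. In both, C1q replicate 2 lay within the Saline range and the other C1q libraries above it. Log2 fold changes were 1.71 ± 0.54 (adjusted p = 0.529) and 1.67 ± 0.47 (adjusted p = 0.449).

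At the centromere and kinetochore, where chromosomes attach to the spindle, 5 genes had log2 fold changes from 0.77 to 2.65. Cenpa, the histone H3 variant that marks centromeres, held 21.8, 16.2 and 13.6 CPM in Saline and 38.6, 24.1 and 31.9 CPM in C1q. The groups did not overlap (0.87 ± 0.24, adjusted p = 0.44). Spc25, of the Ndc80 complex that holds microtubules, held 0, 0.406 and 1.79 CPM against 8.06, 1.42 and 4.49 CPM, with the highest log2 fold change of the 50 genes, 2.65 ± 0.89 (adjusted p = 0.54). It rests on 49 counts in all, and C1q replicate 2 overlapped Saline. Cenpf, a large kinetochore protein, held 2.56, 1.22 and 3.93 CPM against 9.45, 2.48 and 10.3 CPM, again with C1q replicate 2 inside the Saline range (1.49 ± 0.58, adjusted p = 0.594). Ndc80 had a log2 fold change of 0.78 ± 0.86. Cenpe, the kinetochore motor, held 10.6 CPM in C1q replicate 1 and 1.06 to 3.24 CPM in the other 5 libraries. Its log2 fold change of 0.77 became -0.95 without that library.

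Spindle motors and microtubule proteins comprised 6 genes with a median log2 fold change of 1.32. Kif11, the motor that pushes spindle poles apart, held 2.56, 0.406 and 3.93 CPM in Saline and 6.95, 6.03 and 7.64 CPM in C1q. Its C1q libraries lay close together and above Saline, C1q replicate 2 included (1.52 ± 0.54, adjusted p = 0.565). Kif20a, a motor of the central spindle, held 1.92, 2.43 and 1.43 CPM against 6.95, 2.84 and 6.74 CPM, without overlap (1.5 ± 0.52, adjusted p = 0.554). Prc1, which bundles the microtubules of that spindle, held 1.92, 2.43 and 3.57 CPM against 9.45, 2.84 and 9.43 CPM. C1q replicate 2 of Prc1 lay within the Saline range (1.44 ± 0.52, adjusted p = 0.571). The other 3 were Tpx2, a spindle assembly factor (1.20 ± 0.49), Kif23, a central spindle motor (0.52 ± 0.45), and Nusap1, which binds spindle microtubules (-0.03 ± 0.67).

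Cytokinesis, the division of the cell body, was represented by Ect2, Anln and Racgap1. Ect2, which activates RhoA at the cleavage site, held 3.52, 2.03 and 3.22 CPM in Saline and 9.17, 4.26 and 10.8 CPM in C1q, without overlap (1.43 ± 0.45, adjusted p = 0.529). Anln, a scaffold of the contractile ring, held 5.77, 2.43 and 6.79 CPM against 8.89, 6.03 and 9.43 CPM. Racgap1, a partner of Ect2, held 5.77, 6.89 and 6.43 CPM against 10.3, 3.19 and 14.4 CPM. C1q replicate 2 lay within the Saline range for Anln and below it for Racgap1, with log2 fold changes of 0.67 ± 0.41 and 0.53 ± 0.45.

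Top2a, the topoisomerase that untangles chromosomes (chr11:98992943-99024189), held 5.77, 4.87 and 7.51 CPM in Saline and 27.8, 8.51 and 22.5 CPM in C1q. Mki67, which coats mitotic chromosomes and is the usual marker of cycling cells, held 18.9, 7.3 and 15.4 CPM against 30.6, 13.8 and 33.2 CPM. Top2a did not overlap between the groups, while C1q replicate 2 of Mki67 lay within the Saline range. Log2 fold changes were 1.69 ± 0.40 (adjusted p = 0.379) and 0.88 ± 0.36 (adjusted p = 0.594).

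**Figure D5:**
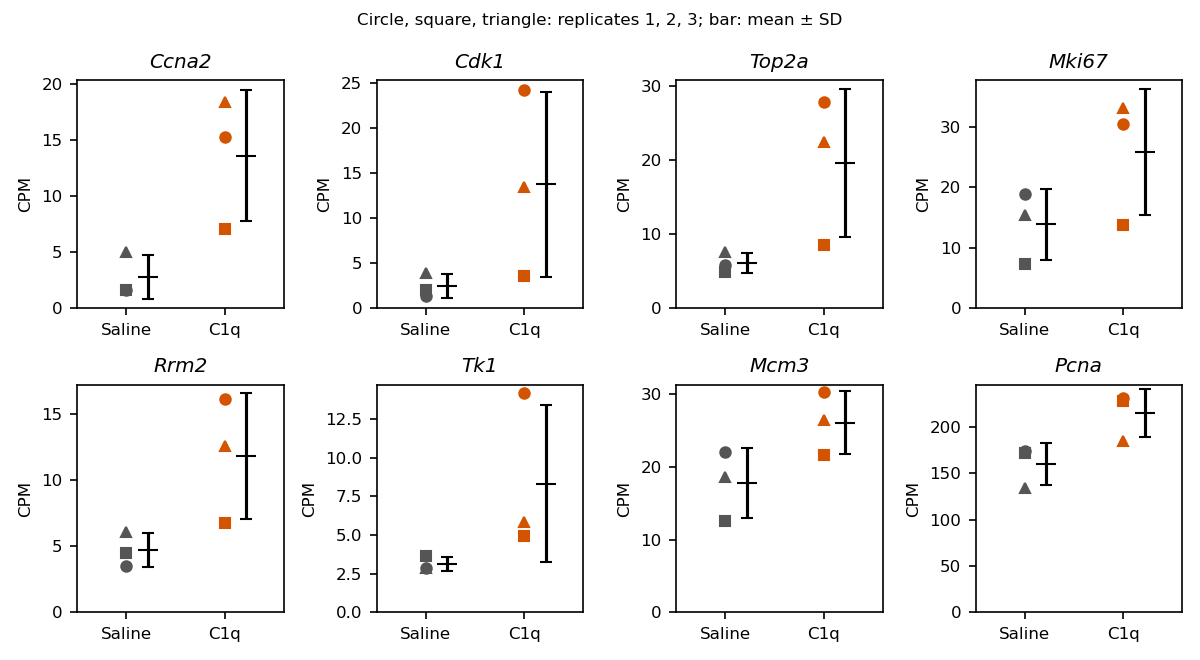
Level (CPM, linear axes from 0) of 8 genes in each library, with circles, squares and triangles for replicates 1, 2 and 3 and bars for the mean ± SD. The square of C1q replicate 2 lies lowest of its group for Ccna2, Cdk1, Top2a, Mki67, Rrm2, Tk1 and Mcm3, and Pcna shows C1q replicates 1 and 2 together at 231 and 228 CPM.

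Stmn1, a microtubule-destabilizing protein, and Hmgb2, a chromatin protein, are linked to proliferation but also read in other cells. Stmn1 held 142, 153 and 106 CPM in Saline and 200, 136 and 136 CPM in C1q. Hmgb2 held 57.3, 74.2 and 50.4 CPM against 90, 40.1 and 63.8 CPM. Both overlapped between groups, with log2 fold changes of 0.24 ± 0.20 and 0.10 ± 0.26.

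Other cell cycle genes were read from 6 lists, and edgeR called 0 of them in any list. Over all genes, 4.2% were higher at an unadjusted p under 0.05 by edgeR. Of 67 other mitosis genes, 56 had 20 counts or more, 16 were higher at an unadjusted p under 0.05, and the median log2 fold change was 0.66. The leading genes by p were Lmnb1, a nuclear lamin (28.8, 26 and 33.2 CPM against 52, 38.3 and 44.5 CPM, log2 fold change 0.62 ± 0.18, adjusted p = 0.508), and Ckap2, a spindle protein (2.26 ± 0.68, adjusted p = 0.521). Of 43 other replication genes, 40 had enough counts, 1 was higher at an unadjusted p under 0.05, and the median was 0.06. Rfc5, a clamp loader subunit, had a log2 fold change of 0.64 ± 0.32. The 43 together held 578.5, 569 and 552.6 CPM in Saline replicates 1 to 3. In C1q replicates 1 to 3 they held 642.9, 559.9 and 541.2 CPM, with C1q replicate 3 below every Saline library. All 67 of the other mitosis genes together held 408.4, 394.6 and 449 CPM in Saline and 633.7, 412.1 and 531.3 CPM in C1q, with C1q replicate 2 within the Saline range. The median was thus higher for the other mitosis genes than for the other replication genes in the same libraries.

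Upstream of both classes, 19 regulators of the E2F, DREAM and FoxM1 system had a median log2 fold change of 0.16. Of them 1 was higher at an unadjusted p under 0.05, against 4.2% of all genes. The same share stands beside the counts of higher genes below. E2f7, a repressor that is itself an E2F target, held 0.32, 1.22 and 1.79 CPM against 4.45, 2.48 and 4.04 CPM (1.72 ± 0.64), and E2f1, an activator, 5.77, 6.49 and 5.36 CPM against 11.1, 8.16 and 7.64 CPM (0.63 ± 0.32). The 8 genes of G1 cyclins, kinases and activators had a median of 0.30, with 2 higher at an unadjusted p under 0.05. Myc, which promotes entry into the cycle, held 22.4, 16.6 and 15.4 CPM against 33.1, 26.9 and 36.4 CPM, without overlap (0.81 ± 0.21, adjusted p = 0.416), and Cdk2, the partner of cyclin E, had 0.45 ± 0.20 (adjusted p = 0.6). The 6 inhibitors of cyclin-dependent kinases with enough counts had a median of -0.03, led by Cdkn1b (-0.18 ± 0.17) and Cdkn2d (-0.08 ± 0.19), and 0 had an unadjusted p under 0.05 in either direction. The 14 p53 targets had a median of 0.01 and 1 higher gene at an unadjusted p under 0.05, with Ccng1 at 0.48 ± 0.17 and Plk2 at -0.33 ± 0.16.

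Some genes overlap a neighbour or have copies with which they could share reads, and no shared reads were measured here. How strand was handled in counting was not stated in the labels or notes used here. A gene with its own row overlaps on the opposite strand for 11 of the 50. For Ccna2 this is Exosc9, at 28.5, 15.8 and 20 CPM in Saline and 27.2, 30.5 and 32.8 CPM in C1q, and for Cdc20 it is Elovl1, with a log2 fold change of 0.43 ± 0.17. For Tk1 it is Afmid (0.02 ± 0.48), for Prc1 Rccd1 (0.15 ± 0.32) and for Kif20a Cdc23 (-0.33 ± 0.22). C1q replicate 3 was the highest library for both Exosc9 and Ccna2, and a part of Exosc9 reads in the Ccna2 values was not tested. The other 6 of the 11 were Mcm7, Gins2, Ccne2, Cdca8, Ube2c and Nusap1. Tyms, Pcna, Ccnb1, Ccnb2 and Stmn1 have named copies in GENCODE M21, so their counts are uncertain in that respect.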

How the data were processed

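The authors deposited raw counts, 1 whole number for each gene in each library, from 5′-end RNA libraries of poly(A) RNA. The tools cutadapt 2.1.0 and Bowtie2 2.4.2 and the build GRCm38 appear in the submitters' processing notes, which give no order or role. How reads were assigned to genes, with which annotation and strand setting, and whether molecular identifiers were used is not given there or in the labels. Totals were 2991562, 2658913 and 2577429 counts for Saline and 3650793, 2980053 and 2227619 for C1q. Samples were grouped by their treatment label and numbered in accession order, which pairs nothing.

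After TMM scaling, edgeR 4.0.16 in R 4.3.3 tested C1q against Saline (estimateDisp, glmQLFit, glmQLFTest, two-sided, Benjamini-Hochberg over all genes fitted, threshold 0.05), with genes kept by filterByExpr. All gene values, medians, standard errors and adjusted p-values of the cell cycle genes come from a second fit of the 16612 genes with a summed count of 20 or more. The scripts were tested on simulated data. DESeq2 1.42.0, limma-voom 3.58.1, other scalings and filters, and leaving out each library were alternatives. Gene positions are from GENCODE M21 and promoter sequences from RefSeq. Values in every library are given for up to 3 genes per role with the smallest p and for the 3 lowest fold changes, and of each other list for the 2 smallest p-values; Cenpe was added after its values were seen, and an item that this rule names is not reported here. The genes and lists were chosen with earlier results of these data known.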

Additional observations from a re-analysis of the deposited data

How the results depend on the processing

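The count of called genes, 4, was 373 without a filter on low counts and 32 with DESeq2, and 0 to 10 when each library was left out in turn; the count of called cell cycle genes, 0, was 10 without a filter, 2 with DESeq2 and 0 in each of those leave-outs (genes kept by filterByExpr). Without C1q replicate 2, 31 of the 50 genes had all C1q libraries above all Saline libraries, against 11 with it; the range over left-out libraries was 12 to 31, and all genes then gave 12.2% to 14% in place of 7.84%. The replication median, 0.40, ranged over left-out libraries from 0.10, without C1q replicate 1, to 0.52. The mitosis median minus the replication median, 0.75, ranged over left-out libraries from 0.67 to 1.08, highest without C1q replicate 2, and was 0.60 with limma-voom. Scaling by library size alone moved the median of all genes to -0.08.

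Under other scalings, filters and tools, signs turned only in genes with a log2 fold change near 0. Leaving out single libraries turned the sign of more genes, among them Mcm5 (0.26, with 162 counts in all). Mcm7 (0.01) was -0.018 with upper-quartile scaling, -0.047 with library size only, -0.023 at a mean CPM of at least 5, -0.013 with filterByExpr (chosen after seeing the data) and -0.0015 with DESeq2. Cdc6 (0.02) was -0.012 with upper-quartile scaling, -0.041 with library size only, -0.0015 with DESeq2 and -0.075 with limma-voom. Bub1b was 0.00019 without a filter, and Hells 0.11 with limma-voom. Leaving out single libraries gave ranges that crossed 0 for Cdc6 (-0.46 to 0.37), Bub1b (-0.25 to 0.23), Mcm2 (-0.24 to 0.40), Mcm7 (-0.23 to 0.11), Ccne1 (-0.012 to 0.96), Tyms (-0.34 to 0.17), Hells (-0.40 to 0.43), Cks2 (-0.078 to 0.44), Nusap1 (-0.92 to 0.24), Hmgb2 (-0.23 to 0.35), Mcm5 (-0.019 to 0.61), Ccne2 (-0.048 to 0.57), Cenpe (-0.95 to 1.22) and Ndc80 (-0.026 to 1.29). The cause of these moves was not tested. No paired analysis was possible because the groups share no replicate number in the labels. The low counts limit what single genes can show: 3 counts are 0.822 to 1.35 CPM.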
